A study of Mus musculus with 6 samples.

Results

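Liver sinusoidal endothelial cells were followed through 10 of their marker genes in preparations of mouse hepatocytes. The genes were chosen by name, as markers of sinusoidal endothelium that can be carried along when hepatocytes are isolated. They are 10 of the 20416 genes read by at least 1 probe set that the platform annotation assigns to that gene alone. All 10 lay above the filter on dim genes, which 15312 of the 20416 passed. The study compared 3 miR-143DOX mice, which carried a doxycycline-inducible allele of the microRNA miR-143, with 3 wildtype littermates as control. All were adult C57BL/6 animals that drank 4 mg/ml doxycycline in 10% sucrose for 8 days, so control mice had the drug without the allele. Each array held the RNA of 1 mouse, extracted from perfused and collagenase-digested liver cells that were snap-frozen. The cell types in which the transgene is active are not given in the sources used here, and the labels' protocols name no step that removed other liver cells. How much miR-143 the preparations held was not analysed here.

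Sinusoidal endothelium lines the liver's capillaries. Its cells are perforated by open pores, lack a basement membrane and clear waste from the blood with an unusual set of scavenger receptors. The stabilins Stab1 and Stab2 take up modified proteins and hyaluronan, the mannose receptor Mrc1 takes up collagen fragments and glycoproteins, and the inhibitory Fc receptor Fcgr2b takes up immune complexes. Vascular endothelial growth factor, made largely by hepatocytes in the liver, acts on these cells through its receptor Kdr. Some of the markers are shared with other cells: Mrc1 and Stab1 with macrophages, Fcgr2b with macrophages and B cells, Lyve1 with lymphatic endothelium, and Pecam1 with all endothelium and platelets.

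The means of the 10 markers lay lower in miR-143DOX than in control preparations, with log2 differences of -0.37 to -0.017, and none of these differences passed the test over all genes. The lectin gene Clec4g stood furthest from 0, at 0.776-fold of the control level, and its transgenic and control values did not overlap. The other 9 markers overlapped between the groups. The values of the 10 genes tended to move together over the 6 arrays, Fcgr2b least closely. Among control mice the order differed by gene, with Kdr, Fcgr2b and Oit3 lowest in control replicate 2 and the others in control replicate 1. All 10 were higher in miR-143DOX replicate 1 than in miR-143DOX replicate 2, and for their mean this span of 0.52 was wider than the gap between the groups (-0.076 ± 0.26 in miR-143DOX and 0.076 ± 0.081 in control, as deviations from each gene's mean, SD, n = 3 each). In a bulk sample, fewer endothelial cells and less of these RNAs per cell cannot be told apart.

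Upstream sequences were available for 7 of the 10 genes from RefSeq (build GRCm38.p6). The 4 below are shown because Clec4g was the marker that stood apart, while Stab1, Stab2 and Ehd3 had the closest correlations with the mean of the other members. Only bases before the outermost annotated start of each gene are printed, 5′ to 3′ on the gene's strand. Capitals mark GGAA, the core letters bound by ETS factors, and GATA, the core bound by GATA factors, on either strand (TTCC and TATC on the other). Both families are known for their part in endothelial gene expression.
Clec4g (chr8:3720696-3720901, minus strand): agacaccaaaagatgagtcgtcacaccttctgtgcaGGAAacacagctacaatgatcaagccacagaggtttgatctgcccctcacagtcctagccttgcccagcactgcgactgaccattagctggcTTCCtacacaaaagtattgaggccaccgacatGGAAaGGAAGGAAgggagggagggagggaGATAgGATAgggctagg
Stab1 (chr14:31168652-31168891, minus strand): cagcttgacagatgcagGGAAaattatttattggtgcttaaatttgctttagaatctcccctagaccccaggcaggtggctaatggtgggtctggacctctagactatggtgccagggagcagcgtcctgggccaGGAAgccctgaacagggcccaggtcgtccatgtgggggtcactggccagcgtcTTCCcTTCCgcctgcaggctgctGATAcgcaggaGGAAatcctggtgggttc
Stab2 (chr10:87008039-87008192, minus strand): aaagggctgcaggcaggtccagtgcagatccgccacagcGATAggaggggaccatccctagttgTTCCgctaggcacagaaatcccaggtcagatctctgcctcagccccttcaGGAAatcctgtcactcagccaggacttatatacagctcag
Ehd3 (chr17:73804591-73804840, plus strand): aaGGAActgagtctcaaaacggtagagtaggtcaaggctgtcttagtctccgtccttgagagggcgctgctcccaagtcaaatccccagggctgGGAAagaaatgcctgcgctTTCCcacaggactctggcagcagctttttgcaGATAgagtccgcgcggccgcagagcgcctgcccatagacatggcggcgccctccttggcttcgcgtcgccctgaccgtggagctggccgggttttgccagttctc

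Matches were counted in the 250 bases before the start of each promoter entry. For Clec4g, Stab1 and Stab2 this window runs on past the printed bases, beyond the outermost annotated start. GGAA occurred at least once in all 7 of these genes, 3 to 6 times each, and in 93.4% of all 32851 promoter windows of that length. GATA occurred in 6 of the 7, up to 3 times, and in 53.6% of all windows. The printed bases hold 2 of the 6 GGAA matches of Stab2, 5 of the 6 of Stab1 and 2 of the 3 GATA matches of Clec4g. These matches describe letters in the windows and are no measure of binding.

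The 4 scavenger and clearance receptors were all lowest in miR-143DOX replicate 2. Stab1, with the most probe sets beside Stab2 (71 each), measured 7.52, 7.03 and 7.20 in miR-143DOX replicates 1 to 3, against 7.33, 7.34 and 7.34 in control (log2 intensity). The control mice lay within 0.0148 of each other, while the miR-143DOX mice spanned 0.49 around them. Its mean was 7.25 ± 0.25 in miR-143DOX and 7.34 ± 0.0078 in control (SD, n = 3 each), a difference of -0.089 with a standard error of 0.15 in limma (adjusted p = 0.9997, as for each of the 10 genes). Stab2 measured 8.41, 7.97 and 8.26 in miR-143DOX, against 8.19, 8.40 and 8.57 in control, with a difference of -0.17 (standard error 0.16), which was -0.054 without miR-143DOX replicate 2. Its highest value was in control replicate 3 and its lowest in miR-143DOX replicate 2. Mrc1 measured 8.16, 7.67 and 8.06 in miR-143DOX, against 7.73, 8.23 and 8.41 in control (difference -0.16, standard error 0.19). Here control replicate 1 lay close to the lowest transgenic mouse, and without control replicate 1 the difference was -0.35, while leaving out control replicate 3 gave -0.011 and leaving out miR-143DOX replicate 2 gave -0.0081. Fcgr2b measured 7.15, 6.95 and 7.16 in miR-143DOX, against 7.32, 7.10 and 7.16 in control (difference -0.10, standard error 0.14, and -0.036 without miR-143DOX replicate 2). It had the narrowest span of the 10 among miR-143DOX mice, 0.21, and followed the other members least.

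Clec4g, the sinusoidal C-type lectin also known as LSECtin, measured 9.22, 8.92 and 8.86 in miR-143DOX replicates 1 to 3, against 9.26, 9.41 and 9.43 in control. The highest transgenic mouse lay just below the lowest control mouse. The means were 9.002 ± 0.19 in miR-143DOX and 9.37 ± 0.092 in control (SD, n = 3 each), a difference of -0.37 with a standard error of 0.14 and a 95% interval of -0.68 to -0.056. The unadjusted p of limma's two-sided test was 0.0245, and the adjusted p over all genes was 0.9997. Without miR-143DOX replicate 2, miR-143DOX replicate 3, control replicate 2 or control replicate 3, the unadjusted p was 0.0743, 0.0771, 0.0724 and 0.0678, at differences of -0.33, -0.30, -0.34 and -0.34. Set against the mean of the other 9 members on the same array, Clec4g deviated by -0.12 ± 0.15 in miR-143DOX and by 0.12 ± 0.055 in control mice (SD, n = 3 each). That contrast was -0.19, 0.056 and -0.22 in miR-143DOX replicates 1 to 3, against 0.085, 0.18 and 0.091 in control, so the groups were apart on it; since Clec4g was picked for its difference, no test is given.

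Lyve1, a hyaluronan receptor, had the widest span of the 10. It measured 7.65, 6.89 and 6.51 in miR-143DOX, against 7.15, 7.25 and 7.17 in control, with an SD of 0.58 in miR-143DOX and 0.056 in control. Transgenic mice lay on both sides of the control values. The difference of -0.18 (standard error 0.23) was -0.50 without miR-143DOX replicate 1, with an unadjusted p of 0.0122, and turned to 0.076 without miR-143DOX replicate 3. Ehd3, which helps recycle endocytosed membrane, measured 8.25, 7.52 and 7.66 in miR-143DOX, against 7.99, 8.02 and 8.02 in control. The control mice again lay within a narrow band of 0.0256, with transgenic mice above and below it. Its difference of -0.20 (standard error 0.18) was -0.42 without miR-143DOX replicate 1, with an unadjusted p of 0.0193, and -0.054 without miR-143DOX replicate 2. Oit3, which encodes a secreted protein with a zona pellucida domain, measured 8.14, 7.41 and 7.83 in miR-143DOX, against 7.96, 7.85 and 7.90 in control. Transgenic mice again stood at both extremes, and the difference of -0.11 (standard error 0.17) turned to 0.081 without miR-143DOX replicate 2.

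The growth factor receptor Kdr measured 8.18, 7.62 and 8.11 in miR-143DOX, against 8.12, 7.94 and 8.21 in control, a difference of -0.12 (standard error 0.17). Only miR-143DOX replicate 2 lay below the control range, and without it the difference was 0.052. Pecam1, the adhesion molecule of endothelial junctions, measured 7.15, 6.63 and 6.87 in miR-143DOX, against 6.70, 6.83 and 7.16 in control. Its difference of -0.017 (standard error 0.17, 95% interval -0.39 to 0.36) was the closest to 0 of the members, and it turned to 0.11 without miR-143DOX replicate 2 and also without control replicate 3.

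**Figure D1:**
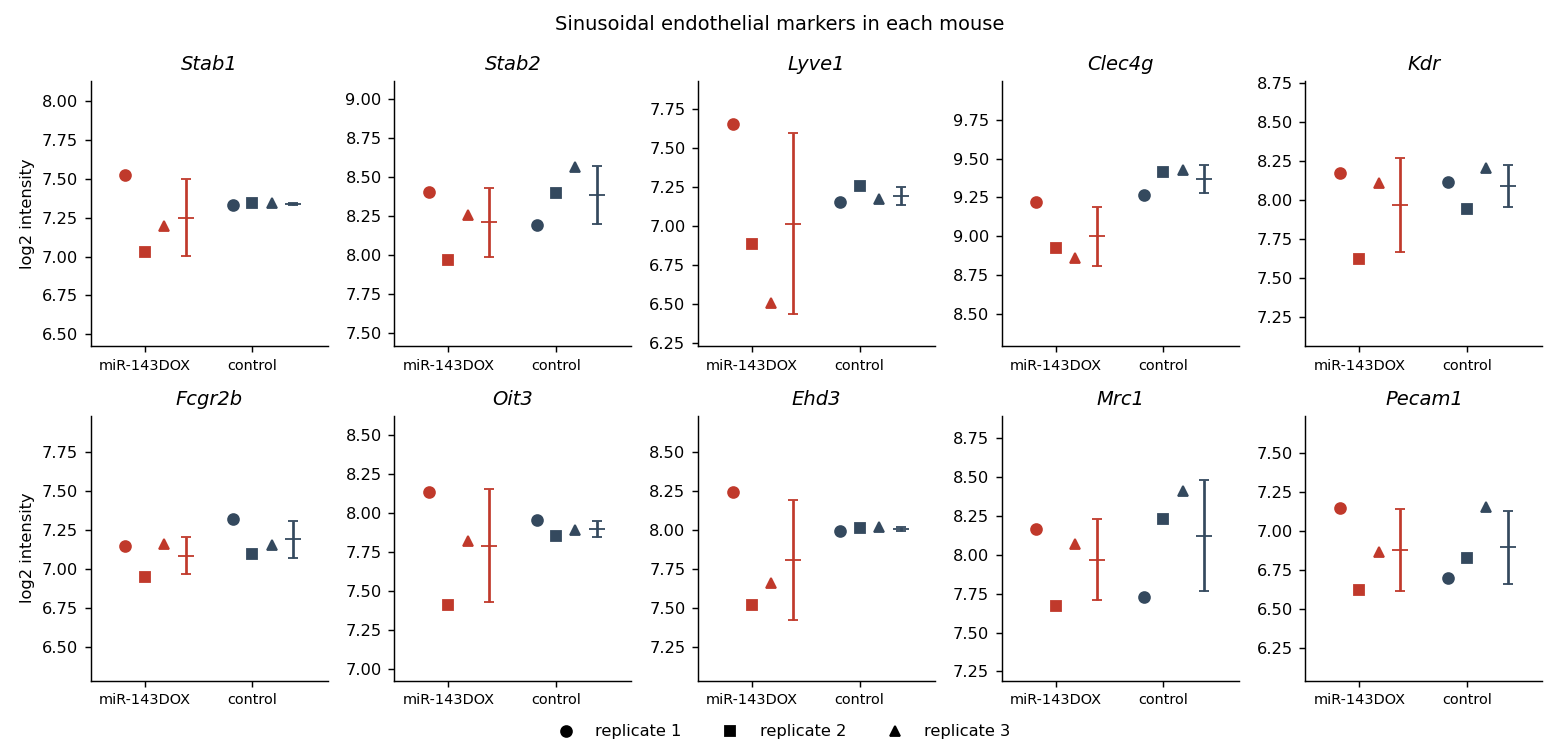
Log2 intensity of the 10 markers in each miR-143DOX mouse (red, left) and each control mouse (dark, right), with the symbol giving the replicate and the bar the mean ± SD (n = 3); every panel spans the same log2 range. Clec4g is the gene whose groups do not overlap, and miR-143DOX replicate 2 (square) is the lowest of the 6 arrays for 8 of the 10 genes.

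Against the background of all genes, 0 of the 10 members passed 5% false discovery rate (FDR) in limma, as did 0 of 15312 genes (0%), with 469 genes at an unadjusted p under 0.05. At that unadjusted level 1 member was lower, against 1.68% of genes, and 0 were higher, against 1.38%. Groups did not overlap, with miR-143DOX lower, for 1 of 10 members and for 3.73% of genes. They did not overlap in the other direction for 0 members and for 3.4% of genes. The sign was shared: 10 of 10 members had a difference below 0, against 47.6% of genes, and their median difference was -0.14, against 0.0083 for all genes tested. The members share their arrays, so 10 signs are not 10 separate observations. Without miR-143DOX replicate 2 the median was -0.022 and 6 members lay below 0, and without miR-143DOX replicate 1 the median was -0.26, with 3 members lower at an unadjusted p under 0.05 (Clec4g, Lyve1 and Ehd3), against 1.31% of all genes in that setting. The 95% intervals of the 10 genes reached from -0.69 at the lowest bound to 0.36 at the highest.

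**Figure D2:**
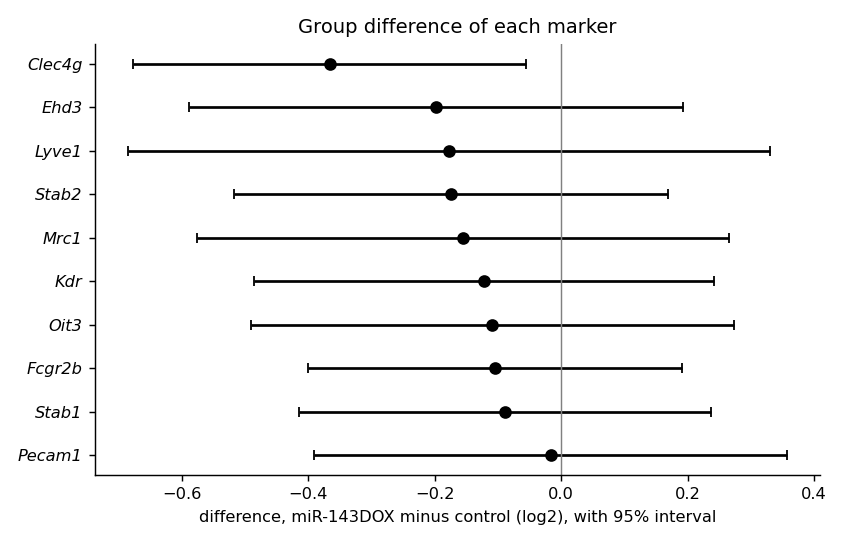
Difference of each marker, miR-143DOX minus control, on the log2 scale with the 95% interval of limma's fit (3 mice per group). All 10 points lie below 0, from -0.37 for Clec4g to -0.017 for Pecam1, and 9 of the intervals include 0.

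The SD was larger in miR-143DOX than in control for 9 of 10 members (all but Mrc1), against 51.9% of all genes tested. For Fcgr2b the 2 were nearly equal (0.120 and 0.117). The members share their mice, so 9 SDs are not 9 separate observations. The mean deviations of Kupffer and stellate markers also had a larger SD in miR-143DOX (0.15 and 0.13) than in control (0.045 and 0.059). That of hepatocyte markers was smaller in miR-143DOX (0.054) than in control (0.084). The median SD of the members was 0.26 in miR-143DOX and 0.10 in control, while for all genes it was 0.17 in miR-143DOX and 0.16 in control. Between miR-143DOX replicates 1 and 2 alone, all 10 members were higher in replicate 1, by 0.20 to 0.76, and their mean by 0.52 (1.43-fold). Replicate 2 gave the lowest value of the 6 arrays for 8 members (all but Lyve1 and Clec4g, which were lowest in miR-143DOX replicate 3), against 15% of all genes. Control replicate 3 gave the highest value for 5 members, miR-143DOX replicate 1 for 4 and control replicate 1 for Fcgr2b; these arrays were highest for 15.1%, 20.3% and 23.1% of all genes.

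Over the 6 arrays, all 45 pairs of members had a positive Pearson correlation, with a median of 0.68 and a range of 0.072 to 0.98. Of the pairs, 77.8% exceeded 0.5, against 18.9% of the 117221016 pairs among all genes tested, whose median was 0.025. The closest pair was Stab1 and Ehd3 (r = 0.98) and the most distant was Fcgr2b and Mrc1 (0.072). With the group means taken out of each gene, the median over pairs was 0.70 and 43 of 45 remained positive. Each member was also set against the mean of the other 9. Stab1 (r = 0.95), Ehd3 (0.94), Stab2 (0.88) and Oit3 (0.87) followed it most closely, Fcgr2b least (0.46). These coefficients describe 6 arrays that share labelling and normalization, and no p is attached to them.

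The markers were measured over 267 probe sets, each a small group of probes that mostly reads an exon. Of these, 184 (68.9%) had a difference below 0, against 49.3% of the 212097 probe sets with a single gene name, and their median was -0.13, against 0.0049 for all. At an unadjusted p under 0.05, 10 member probe sets were lower, against 2.25% of all, and 2 were higher, against 2.21%. The groups were apart with miR-143DOX lower for 26 of the 267 member probe sets, against 4.57% of all 212097. They were apart with miR-143DOX higher for 4 of the 267, against 4.52% of all. No member probe set passed 5% FDR (limma, lowest adjusted p = 0.9998). Probe sets of a gene share its RNA and the same mice, and are not replicates.

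Clec4g had the largest share of probe sets below 0: 9 of its 10 probe sets lay below 0, from -0.85 to 0.10, with a median of -0.39, and in 5 the groups were apart. Its probe set with the largest difference, 10576783, measured 8.67, 8.53 and 8.35 in miR-143DOX, against 9.18, 9.51 and 9.40 in control. Its exception, 10576773, was its dimmest, at a mean of 4.97. Ehd3 had 6 of 7 below 0, Stab2 had 54 of 71, and the shares were smaller for Lyve1 with 6 of 8, Fcgr2b with 8 of 11, Stab1 with 50 of 71, Kdr with 19 of 29 and Oit3 with 7 of 11. Mrc1 was split evenly, 15 of 30, and Pecam1 nearly so, 10 of 19. The extreme probe sets of Stab1 and Kdr rested on few arrays. The Stab1 probe set at 1.59 read 2.61 in control replicate 2 and between 7.31 and 8.17 in the other 5 arrays. The Kdr probe set at -1.56 read 2.50 in miR-143DOX replicate 2 and 5.06 to 7.32 elsewhere. A Mrc1 probe set at -1.48 was apart instead, at 5.55, 5.21 and 6.21 in miR-143DOX, against 6.84, 7.38 and 7.19 in control (unadjusted p = 0.0021). Limma's test of whether the difference varies over the probe sets of a gene (diffSplice, F test) passed 5% FDR for 0 of 10 members, against 0.11% of 18124 genes, and Clec4g had the lowest unadjusted p (0.0221, adjusted p = 0.783).

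**Figure D3:**
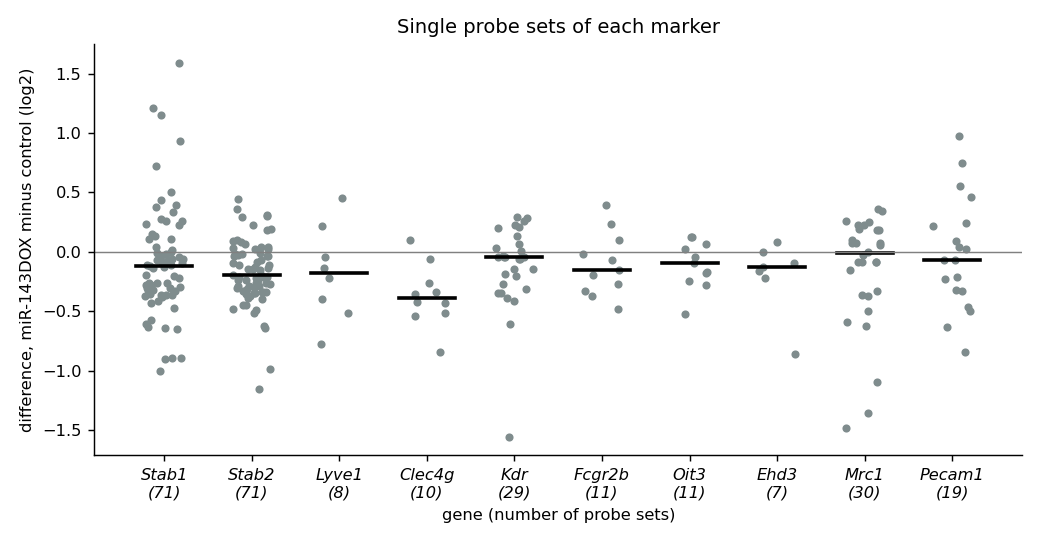
Difference of every probe set of each marker, miR-143DOX minus control (log2), with the number of probe sets below the gene name, points spread sideways for visibility and a bar at the median. Clec4g has 9 of 10 points below 0, while Mrc1 and Pecam1 are spread about evenly around it.

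Other genes of the sinusoid and of endothelium in general were then set beside the 10 markers. Of 20 further sinusoidal genes, all 20 were tested, 14 lay below 0 and 0 passed 5% FDR or an unadjusted p under 0.05. Their median was -0.099, and -0.039 without miR-143DOX replicate 2. Adam23 was lower in every transgenic mouse (difference -0.23, standard error 0.14). Clec1b, which encodes the receptor CLEC-2 and is also made by Kupffer cells and platelets, differed by -0.26 (0.17), and Dnase1l3, a secreted nuclease, by -0.21 (0.16). Tfec, listed on the platform as Tcfec, differed by 0.25 (0.15). Its values of 5.08 to 5.59 lay near the filter's cut of 5.06. Of 35 genes of endothelium at large, 20 lay below 0 with a median of -0.059, again with 0 past either level. The median turned to 0.017 without miR-143DOX replicate 2. The sialomucin gene Emcn (-0.27, standard error 0.15) and the transcription factor Ets1 (-0.23, 0.15) were lower in every transgenic mouse, while Sox18 and Icam2 differed by 0.25 and 0.22 and overlapped. Emcn measured 4.86 to 5.50, around the filter's cut, where signal could not be told from background. Of 12 tested genes of large vessels and continuous capillaries, 3 lay below 0, with a median of 0.031. The differences of the connexin genes Gja4 and Gja5 were 0.28 and -0.17, that of Thbd was -0.23 and that of Sema3g 0.13.

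Among close relatives of the markers (other growth factor receptors, Ehd proteins, Fc receptors and lectins), 8 of 15 tested genes lay below 0 with a median of -0.043, and 0 passed an unadjusted p under 0.05. The differences were -0.19 for Ly75, 0.17 for Clec4f, -0.13 for Ehd2 and 0.13 for Cd209b. Of 22 tested genes that signal around the sinusoid, 9 lay below 0 and 1 was higher at an unadjusted p under 0.05. This was the Notch target Hes1, which measured 7.94, 8.005 and 7.76 in miR-143DOX, against 7.20, 7.64 and 7.04 in control (difference 0.61, standard error 0.17, unadjusted p = 0.00355). Every transgenic mouse was above every control mouse, but Hes1 did not pass over all genes (adjusted p = 0.9997), and hepatocytes and bile duct cells express it too. The co-receptor Nrp1 differed by -0.27, Bmp4 by 0.25 and the ligand Dll1 by 0.20. Of 22 genes of scavenging and endocytosis, 11 lay below 0. Scarb1, the receptor for high-density lipoprotein, was lower in every transgenic mouse (-0.28, standard error 0.13) and so was Scarf1 (-0.24, 0.13), while Ptrf, a coat protein of caveolae, differed by 0.36 (0.19). Cd36, a fatty acid receptor that hepatocytes share with endothelium, was higher at an unadjusted p of 0.00941 (difference 1.03, standard error 0.33) but overlapped, at 10.3, 9.56 and 8.76 in miR-143DOX, against 8.10, 9.002 and 8.47 in control.

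Markers of other cells of the liver were read on the same arrays. The mean deviation of the 10 sinusoidal markers was 0.21, -0.31 and -0.12 in miR-143DOX replicates 1 to 3, against 0.0014, 0.064 and 0.16 in control. The 17 tested Kupffer cell markers stood at 0.17, -0.14 and 0.0062 in miR-143DOX, against 0.0019, -0.063 and 0.024 in control, with the same transgenic mice at both ends. Their median difference was 0.042, with 7 of 17 below 0, and turned to -0.041 without miR-143DOX replicate 1. The 4 named genes were Cd14 at 0.21 and Timd4 at -0.20, each with the groups apart, and Clec4f at 0.17 and Cd5l at 0.18, which overlapped. Cd14 measured 5.30 to 5.68, near the filter's cut of 5.06. Stellate cell and fibroblast markers stood at 0.17, -0.058 and -0.055 in miR-143DOX, against -0.00048, 0.027 and -0.086 in control. Their median was 0.017, with 7 of 17 below 0. The 4 with the smallest unadjusted p were all among those above 0. Tagln, of contractile cells, was higher by 0.33 at an unadjusted p of 0.0346 in limma, with the groups apart. Its values of 5.22 to 5.74 lay near the filter's cut of 5.06. Pdgfrb differed by 0.23 and was apart too, while Pdgfra and Col3a1 differed by 0.19 and 0.16 and overlapped. Of the 7 below 0, Acta2 differed by -0.13 and Lrat by -0.10, and both overlapped. All 20 hepatocyte markers passed the filter on dim genes, with a mean log2 level of 12.50 to 12.60 in miR-143DOX and 12.45 to 12.62 in control. Their deviations of -0.046, -0.013 and 0.060 in miR-143DOX, against -0.092, 0.020 and 0.072 in control, did not have the order of the endothelial ones, and their median difference was 0.0099. Of these 20 markers, 8 lay below 0 and 12 above. The 4 with the smallest unadjusted p were all among those below: Apoa1 (-0.15, with the groups apart), Serpinc1 (-0.15), Asgr1 (-0.13) and Apoh (-0.098).

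The mean log2 level of the Kupffer list ran from 6.88 to 7.19 in miR-143DOX and from 6.95 to 7.04 in control, and that of the stellate list from 6.69 to 6.92 in miR-143DOX and from 6.66 to 6.77 in control. No marker is listed at 0, since the lowest deposited value is 1.605. Bile duct, B cell, T and NK cell, myeloid, erythroid and platelet lists had 6, 4, 3, 3, 2 and 4 tested genes, with medians of 0.00083, 0.12, 0.057, 0.053, 0.0089 and 0.070. These lists are short, and some of their medians moved with the processing. With the brightest probe set, that of bile duct markers was -0.12, that of myeloid markers -0.37, and that of T and NK cell markers 0.23. Whether list length played a part was not tested. Among their genes Spp1 differed by -0.32 at an unadjusted p of 0.0379, with the groups apart. Cldn4 differed by 0.25, Krt7 by 0.14, Krt19 by -0.098, Pax5 by 0.16 and Cd79b by 0.13. The groups were also apart for the T cell gene Cd8a (0.20) and the platelet gene Gp9 (-0.22). They overlapped for Ly6c2 (0.54), Alas2 (0.077) and Pf4 (0.15). Ly6c2, with 2 probe sets, measured 4.36 to 5.76, around the filter's cut of 5.06. Pf4 (5.17 to 5.58), Krt19 (5.02 to 5.29) and Cd79b (5.17 to 5.47) lay near that cut too. The part that these cells had in the values of Mrc1, Stab1, Fcgr2b and Pecam1 was not tested.

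**Figure D4:**
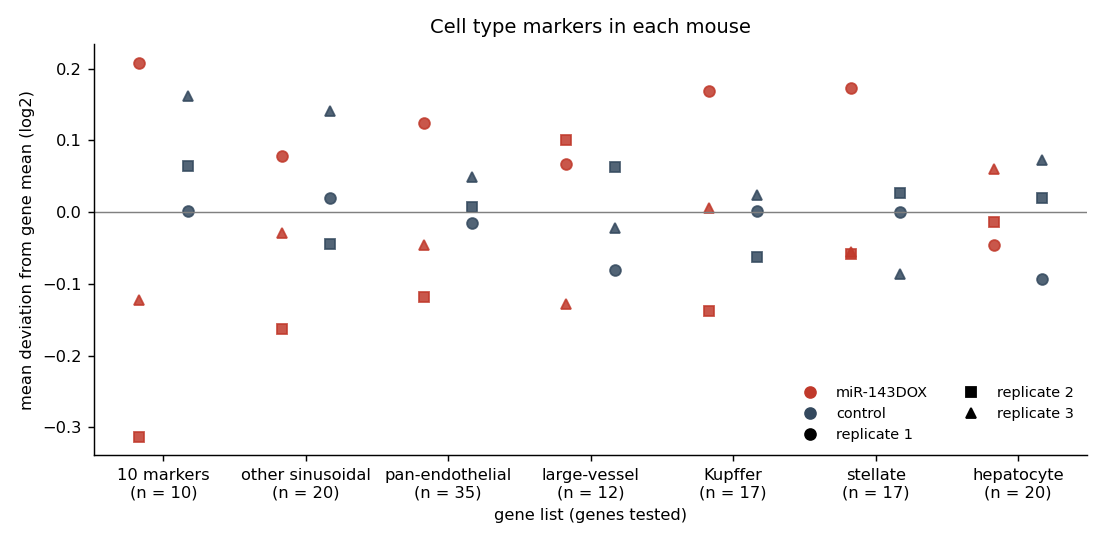
Mean deviation of each gene list from its genes' own means (log2) in each miR-143DOX mouse (red, left of each pair) and each control mouse (dark, right), with the symbol giving the replicate and the number of tested genes below each name. The 10 markers span 0.52 between miR-143DOX replicates 1 and 2, hepatocyte markers span 0.16 over all 6 arrays.

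The likeness of each gene to the marker set was measured as Pearson's r with the mean of the 10 members over the 6 arrays. Its median was 0.55 for endothelium at large, 0.37 for the other sinusoidal genes, 0.35 for the close relatives of the markers, 0.30 for Kupffer cells, 0.23 for stellate cells, -0.067 for hepatocytes and -0.24 for large vessels, against -0.021 for the other 15302 genes tested. An r over 0.8 was found for 9 of 35 genes of endothelium at large and 3 of 20 further sinusoidal genes, against 2 of 15 relatives, 2 of 17 Kupffer, 1 of 17 stellate and 0 of 20 hepatocyte markers and 1.85% of all genes. These lists overlap: Flt1 (0.84) is counted both in endothelium at large and among the relatives. The relatives also share Flt4 and Cd209b with the sinusoidal list and Clec4f with the Kupffer list. Those closest in the endothelial lists, named after their values were seen, were Gpr116 (0.96) and the phosphatase gene Ptprb (0.95), with the transcription factor Maf (0.93) and Clec1b (0.93) among sinusoidal genes. Gpr116 measured 8.29, 7.52 and 8.00 in miR-143DOX, against 7.97, 8.17 and 8.23 in control, with the same mice at its extremes as Stab1. Not all endothelial genes had a positive r. Of the 35 genes of endothelium at large, 18 exceeded 0.5. In the same list r was -0.86 for Sox17, -0.63 for Myct1, -0.49 for Bcl6b, -0.39 for Tal1, -0.32 for Nos3 and -0.28 for Erg. Sox18, S1pr1, Sox7, Cldn5 and Icam2 were negative too. Of the 20 further sinusoidal genes 9 exceeded 0.5, while Cd209b (-0.72), Wnt9b (-0.32), Bmp6 (-0.29), Cd4, Tfec and Gata4 were negative. Sox17 measured 5.31 to 5.68, near the filter's cut of 5.06, where signal could not be told from background. Myct1 (5.25 to 5.84) and Cd209b (5.28 to 5.61) lay near it too. Tal1 (6.64 to 7.01), Nos3 (6.12 to 6.46) and Erg (6.26 to 6.47) lay further above it. Over the whole array the 10 named genes with the highest r were Ms4a6c and Zmynd15 (0.98 each), Nkiras1, Itgb1bp1, Tdgf1, Aga and Arpp19 (0.97 each), and Smarcb1, Zfp384 and Fkbp7 (0.97, 0.97 and 0.96). None of these 10 is in the lists of cell markers. Ms4a6c (5.23 to 5.70), Zmynd15 (5.44 to 5.89) and Tdgf1 (5.40 to 5.79) also measured near that cut. With 6 arrays and 15302 genes a high r is common, and 283 genes exceeded 0.8.

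**Figure D5:**
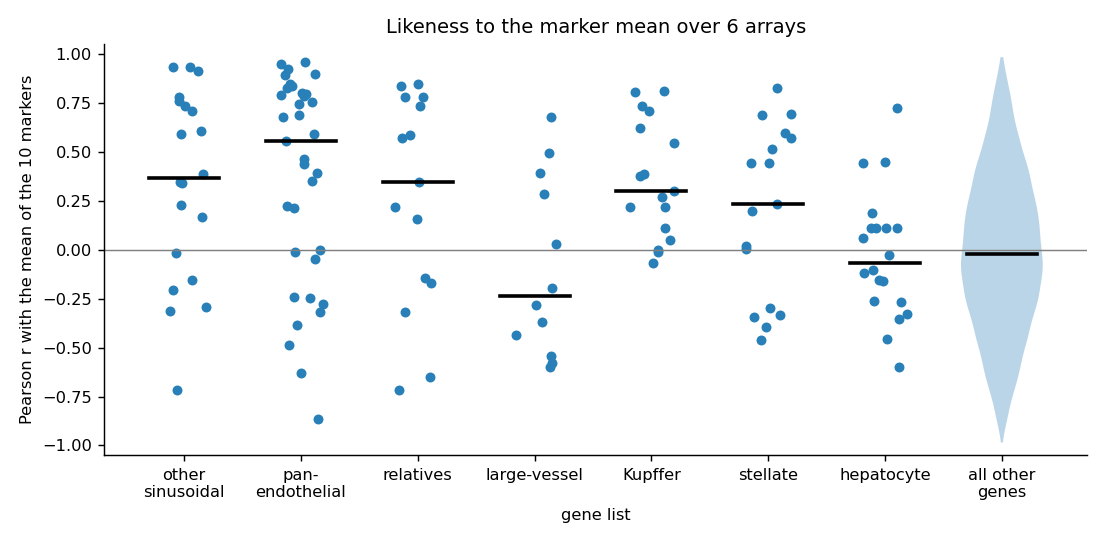
Pearson's r of each gene with the mean of the 10 markers over the 6 arrays, as points for the genes of each list with a bar at the median, and as a distribution for the other 15302 genes tested. The genes of endothelium at large sit at a median of 0.55, the further sinusoidal genes at 0.37 and the close relatives at 0.35, while hepatocyte and large-vessel genes sit at -0.067 and -0.24.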

How the data were processed

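RNA of hepatocyte preparations from 6 mice was read on Affymetrix arrays, 1 per mouse. The deposited values are on a log2 scale by their range, 1.605 to 15.2. Partek is named per the submitters' processing notes; the sources used here do not state the background, normalization or summary steps. Quantile normalization was applied, because the 75th and 95th percentiles of the arrays differed by over 0.1. A gene is the mean of the probe sets that the platform annotation assigns to it alone (212097 of 234873). Genes in the lowest 25% by mean (under 5.06) were left out, which left 15312. No detection call was used, and the number of arrays limits precision. limma 3.58.1 in R 4.3.3 (lmFit, eBayes, group only, two-sided, Benjamini-Hochberg over all genes) gave differences, miR-143DOX minus control, and was tested on simulated data. Probe sets were fitted singly without a filter. Named genes were the members, up to 4 per list with the smallest unadjusted p, and the 10 non-members most like the members' mean, predicted genes skipped. The members and lists were chosen with earlier results of these data known. Of 255 list entries, 243 were found under the written symbol and 4 under another. Alternatives were other scalings, filters, probe set summaries, variance models, the replicate block and each array left out.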

Additional observations from a re-analysis of the deposited data

How the results depend on the processing

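In all 16 other settings 0 members and 0 genes passed 5% FDR, and the members' median difference kept its sign, from -0.26 to -0.022 with arrays left out. Leaving out each array in turn, members lower at an unadjusted p under 0.05 numbered 0 to 3 (1.06% to 3.75% of all genes), members below 0 numbered 6 to 10 (43.9% to 53% of all genes), and members lower with groups apart 1 to 5 (7.29% to 11.8% of all genes). The 5 apart came without miR-143DOX replicate 1, against 7.33% of genes. With the median of probe sets 3 members were apart (4.21% of genes), and Lyve1 (0.11), Oit3 (0.056) and Mrc1 (0.0052) turned their sign. Lyve1 (0.22) and Kdr (0.029) turned with the brightest probe set and Pecam1 (0.0014) with array weights. Leaving out arrays, Stab1 ranged from -0.22 to 0.020, Kdr from -0.23 to 0.052, Oit3 from -0.28 to 0.081, Pecam1 from -0.15 to 0.11 and Lyve1 from -0.50 to 0.076. The highest value came without miR-143DOX replicate 2 for Stab1, Kdr and Oit3, without miR-143DOX replicate 3 for Lyve1 and without control replicate 3 for Pecam1. With the brightest 1 in 3 probe sets of each gene, a setting chosen after seeing the data, Lyve1 (0.014) and Mrc1 (0.067) turned. The cause of these turns was not tested. Replicate numbers did not pair the mice: deviations of same-numbered arrays correlated at 0.11, 0.047 and 0.30, and miR-143DOX replicates 2 and 3 correlated best with their own number but replicate 1 with control replicate 2 (0.15). The replicate block left the median at -0.14 and 1 member at an unadjusted p under 0.05. Clec4g kept its sign in every setting, from -0.52 to -0.30. The medians of the T and NK cell, B cell, bile duct and myeloid lists moved by more than their spread between mice in 6 of 15, 4 of 15, 3 of 16 and 2 of 15 settings. Those of the close relatives and of the genes that signal around the sinusoid did so in 3 of 16 each. The scavenging and endocytosis median moved in 2 of 16 settings, and those of endothelium at large, hepatocyte and platelet lists in 1 of 16 each. The medians of the remaining lists did not move by that much. Dimness could not be told from background.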
